A study of Mus musculus with 4 samples.

Results

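Shelterin and CST are 2 protein complexes that bind and protect mammalian telomeres, and 10 mouse genes encode their subunits. The 7 shelterin genes are Terf1, Terf2, Terf2ip, Tinf2, Acd, Pot1a and Pot1b, and the 3 CST genes are Ctc1, Stn1 and Ten1. They were found by exact gene symbol among the 53379 genes in the deposited tables. All 10 were present, and all 10 passed the filter on low counts that left 19148 genes for the test.

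Shelterin sits on telomeric repeat DNA. TRF1 and TRF2 hold the double-stranded repeats, POT1 holds the single-stranded overhang, and TIN2 and TPP1 link the parts, so that the natural chromosome end is not treated as a break by ATM and ATR signalling or joined by repair enzymes. CST binds single-stranded DNA and brings DNA polymerase alpha-primase to the end, where the strand that telomerase does not make is filled in. In cells that lack telomerase, some lineages survive by alternative lengthening of telomeres (ALT), in which recombination copies DNA onto chromosome ends. Embryonic stem cells divide without limit and normally have active telomerase.

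The study asked how mouse embryonic stem cells without telomerase RNA maintain their chromosome ends over long culture. RNA came from DKO741, a single Terc-/- line made from E14 cells by replacing both alleles of Terc, the gene for the telomerase RNA, and it was compared between cells after 100 population doublings (PD100, before ALT) and after 800 (PD800, with ALT established), with 2 libraries of each. Both groups thus lack Terc, no wild-type library was used here, and the treatment text of the labels gives the same 2 numbers as passages. The line was kept on mouse embryonic fibroblast feeders, while RNA was taken from feeder-free cells. Replicates were described as biological duplicates with no statement of separate cultures, so that p-values measure only the spread between these samples.

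Total expected counts, the read pairs that RSEM assigned to genes, lay between 32454121 and 38492149 per library. Mitochondrial genes took 15.4% and 11.0% of them in PD100 replicates 1 and 2 and 17.7% and 16.0% in PD800, so that the groups did not overlap and PD100 replicate 2 was the lowest. The targeted gene, Terc, was at 1 count in a single library, PD100 replicate 1, and at 0 counts elsewhere. Markers of 3 cell types also moved between the groups. By the test described below, 13.1% of all genes rose and 15.4% fell. The summed level of 8 pluripotency markers was 1990 and 2290 CPM in PD100 and 3780 and 3870 CPM in PD800. CPM are counts scaled to library size with edgeR's TMM factors. By the test 4 of these 8 genes rose (Nanog, Esrrb, Klf4 and Tdgf1), while Pou5f1, Sox2, Zfp42 and Dppa5a did not pass. The summed level of 8 primitive endoderm markers fell from 184 and 156 CPM to 12.2 CPM in both PD800 libraries, with 8 of 8 genes lower by the test. The sum of 8 fibroblast markers was 49.5 and 71.5 CPM in PD100 and 14.6 and 15.6 CPM in PD800, with 4 of 7 tested genes lower and Lum at 0 counts in 3 of 4 libraries. The part of these shifts in the values given next was not tested, and in bulk RNA fewer cells of a type and less RNA per cell cannot be told apart.

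The 3 genes whose counts rose are shown first with their promoters, together with Pot1a, the paralogue of Pot1b, whose counts did not pass the test. Each sequence is the RefSeq promoter window of GRCm38.p6, with 250 bases before and 50 bases from the transcription start, and capitals mark GC boxes, the letters GGGCGG on either strand. A RefSeq window was matched for 9 of the 10 genes, the exception being Terf1. The windows lie at chr11:116198605-116198904 on the plus strand for Ten1, and on the minus strand at chr17:55712575-55712874 for Pot1b, chr8:107096499-107096798 for Terf2 and chr6:25809169-25809468 for Pot1a.
Ten1: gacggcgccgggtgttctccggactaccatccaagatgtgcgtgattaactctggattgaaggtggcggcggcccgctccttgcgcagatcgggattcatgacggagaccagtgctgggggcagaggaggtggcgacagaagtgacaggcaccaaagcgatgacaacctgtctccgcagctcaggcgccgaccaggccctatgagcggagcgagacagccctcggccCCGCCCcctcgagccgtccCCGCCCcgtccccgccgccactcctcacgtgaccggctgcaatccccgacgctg
Pot1b: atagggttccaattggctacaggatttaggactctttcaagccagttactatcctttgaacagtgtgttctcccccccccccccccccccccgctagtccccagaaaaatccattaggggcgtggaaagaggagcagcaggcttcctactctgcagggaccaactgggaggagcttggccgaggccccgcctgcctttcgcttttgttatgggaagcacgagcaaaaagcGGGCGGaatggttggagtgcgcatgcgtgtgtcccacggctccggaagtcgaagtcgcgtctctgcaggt
Terf2: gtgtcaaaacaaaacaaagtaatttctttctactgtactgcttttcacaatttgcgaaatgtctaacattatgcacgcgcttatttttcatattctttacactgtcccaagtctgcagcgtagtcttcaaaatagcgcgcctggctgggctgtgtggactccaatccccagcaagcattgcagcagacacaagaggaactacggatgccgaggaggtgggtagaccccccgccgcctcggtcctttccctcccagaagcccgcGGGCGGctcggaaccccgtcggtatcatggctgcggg
Pot1a: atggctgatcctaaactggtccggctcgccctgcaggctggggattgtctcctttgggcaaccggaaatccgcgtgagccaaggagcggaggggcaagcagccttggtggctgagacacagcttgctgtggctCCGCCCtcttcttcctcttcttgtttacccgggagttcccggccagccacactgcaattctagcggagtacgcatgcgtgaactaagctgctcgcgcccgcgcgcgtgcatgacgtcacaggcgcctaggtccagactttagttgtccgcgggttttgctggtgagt

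Counted from the transcription start as position 0, the GC boxes of Ten1 begin at -23 and -4, that of Pot1b at -20, that of Terf2 at 13 and that of Pot1a at -117. A GC box was present in 7 of the 9 windows, against 35.7% of 32851 mouse promoter windows of the same length. The TATA box letters TATAAA, searched on both strands, were in none of the 9 windows and in 13.6% of all. The telomeric repeat unit TTAGGG, the sequence that TRF1 and TRF2 bind in telomeres, occurred in 1 of the 9, that of Pot1b at -137, against 10.6% of all. The Ten1 window was the richest in G and C of the 9, at 67.0%, against a median of 52.7% over all windows. The GC boxes stood in promoters of genes that rose and of genes that did not, as in Pot1a, Ctc1, Stn1 and Terf2ip.

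Of the 10 genes, 3 rose in PD800 and 0 fell at an adjusted p under 0.01 (edgeR's quasi-likelihood test on rounded expected counts, Benjamini-Hochberg adjustment over all 19148 genes). Ten1 rose 1.76-fold, Pot1b 1.52-fold and Terf2 1.39-fold, and none of the 3 passed 2-fold. The background was large, since 13.1% of all genes tested rose and 15.4% fell by the same rule, and 6.28% and 8.81% did so by over 2-fold. At an unadjusted p under 0.05 the counts were 3 higher and 1 lower, the latter being Stn1. No share of all genes was worked out at that cut, so these 2 counts have no background. DESeq2 also gave 3 higher and 0 lower at its adjusted p under 0.01, where 2502 of all genes rose and 3036 fell. The median log2 fold change of the 10 genes was 0.03, against 0.01 over all genes tested. When PD800 replicate 1 or PD800 replicate 2 was left out, so that the spread of the lone PD800 library was taken from PD100, 0 of the 10 rose. The same 3 genes kept an adjusted p under 0.01 when either PD100 library was left out.

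**Figure D1:**
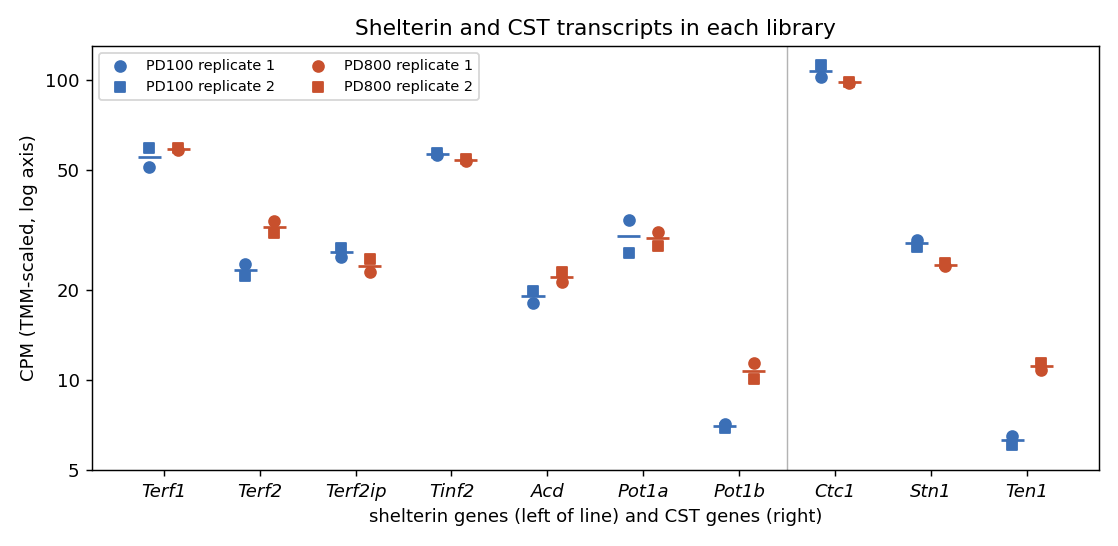
Level of each shelterin gene (left of the grey line) and CST gene (right) in CPM on a log axis, with circles for replicate 1, squares for replicate 2, blue for PD100, red for PD800 and a bar at the mean of 2 libraries. The red points of Terf2, Pot1b and Ten1 stand clear above the blue ones, while those of Pot1a lie between the blue ones and those of Terf1 overlap them.

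Of the genes that bind double-stranded repeats, Terf2 rose and Terf1 did not pass the test. Terf2 encodes TRF2, which helps fold the telomere end into a loop and restrains ATM signalling and end joining. It lies on chromosome 8 (GRCm38, 107069400 to 107096547, minus strand) and was measured at 24.3 and 22.2 CPM in PD100 and at 33.8 and 30.9 CPM in PD800. Both PD800 libraries were above both PD100 libraries. The log2 fold change was 0.48 (SE 0.09, 95% interval 0.25 to 0.70, edgeR adjusted p = 0.00754).

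Terf1, on chromosome 1 (15805646 to 15844052, plus strand), encodes TRF1, which aids replication through telomeric repeats. Its levels were 51.1 and 59.0 CPM in PD100 and 58.2 and 59.2 CPM in PD800. The groups overlapped, with PD100 replicate 1 the lowest of the 4. The log2 fold change was 0.09 (SE 0.09, 95% interval -0.14 to 0.32, edgeR adjusted p = 0.46), which leaves changes of up to 1.25-fold within the interval.

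Terf2ip encodes RAP1, which binds telomeres through TRF2 and restrains homology-directed repair there. It lies on chromosome 8 (112011398 to 112020528, plus strand), and had 25.7 and 27.4 CPM in PD100 and 22.9 and 25.2 CPM in PD800. The groups did not overlap, but the log2 fold change of -0.14 (SE 0.09, 95% interval -0.36 to 0.07) did not pass the test (edgeR adjusted p = 0.238). Terf2 and Terf2ip, whose proteins act as a pair, thus had differences of opposite sign, of which only that of Terf2 passed the test. The difference between them was not tested.

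The linking subunits gave no call. Tinf2, on chromosome 14 (55674689 to 55681820, minus strand), encodes TIN2, which holds TRF1, TRF2 and TPP1 together. It had 56.3 and 57.1 CPM in PD100 and 53.7 and 54.5 CPM in PD800. Replicates of Tinf2 lay within 1 CPM of each other, and the PD800 pair was the lower one. The log2 fold change was -0.07 (SE 0.07, 95% interval -0.24 to 0.11, edgeR adjusted p = 0.487). Acd, on chromosome 8 (105695860 to 105701102, minus strand), encodes TPP1, which joins POT1 to TIN2 and recruits telomerase. It was at 18.1 and 19.8 CPM in PD100 and at 21.2 and 22.8 CPM in PD800. The groups did not overlap, with PD800 higher, and the log2 fold change was 0.21 (SE 0.09, 95% interval -0.01 to 0.44, edgeR adjusted p = 0.109).

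Mice carry a pair of POT1 genes, Pot1a and Pot1b, where humans have a single one. POT1a restrains ATR signalling at telomeres, and POT1b limits trimming of the C-rich strand and works with CST to fill it in. Pot1a, on chromosome 6 (25743737 to 25809246, minus strand), had 34.0 and 26.5 CPM in PD100 and 31.1 and 28.0 CPM in PD800. Both PD800 libraries lay between the PD100 replicates, which were far apart. The log2 fold change was -0.03 (SE 0.13, 95% interval -0.36 to 0.30, edgeR adjusted p = 0.863), the widest interval of the 10 genes.

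Pot1b, on chromosome 17 (55651951 to 55712628, minus strand), had 7.13 and 6.92 CPM in PD100 and 11.4 and 10.1 CPM in PD800. Every PD800 value was above every PD100 value. It rose by 0.61 on the log2 scale (SE 0.11, 95% interval 0.34 to 0.88, edgeR adjusted p = 0.00642). Pot1b contributed 17.4% and 20.7% of the summed CPM of Pot1a and Pot1b in PD100, and 26.8% and 26.4% in PD800. Per length, in TPM (the length-corrected abundance that RSEM gives), the shares were 12.3% and 16.0% in PD100 and 18.3% and 19.3% in PD800, so that Pot1a was the more abundant in all 4 libraries. The closest transcripts of the 2 genes were 80.2% identical over 894 bases, and the expected counts of both were whole numbers (within 0.005) in all 4 libraries, as for reads that were not divided between genes.

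CST had 1 gene that rose and 2 that did not pass the test, and these 2 had negative estimates. Ten1 encodes the smallest CST subunit, which steadies the binding of the complex to DNA. It lies on chromosome 11 (116198855 to 116215318, plus strand) and was at 6.50 and 6.08 CPM in PD100 and at 10.8 and 11.4 CPM in PD800. The PD800 pair was clearly the higher one, with little spread within either group. Ten1 rose by 0.82 on the log2 scale (SE 0.10, 95% interval 0.56 to 1.07, edgeR adjusted p = 0.00166), the largest estimate of the 10 genes. Its expected counts, 263 and 203 in PD100 and 389 and 367 in PD800, were, with those of Pot1b, the lowest of the 10, and counting alone gives an error of 7.02% at 203 counts, against 1.56% at the highest count of the 10 genes, 4131 for Ctc1.

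Ctc1, the largest CST subunit and its DNA-binding scaffold, lies on chromosome 11 (69015911 to 69036473, plus strand). It had 102 and 112 CPM in PD100 and 97.3 and 98.5 CPM in PD800. PD800 was lower in both libraries, with a log2 fold change of -0.13 (SE 0.08, 95% interval -0.32 to 0.06, edgeR adjusted p = 0.228). Stn1, which contacts polymerase alpha-primase, lies on chromosome 19 (47501033 to 47537507, minus strand), at 29.2 and 27.8 CPM in PD100 and 24.0 and 24.5 CPM in PD800. Here too the groups did not overlap, PD800 being lower, and the log2 fold change was -0.24 (SE 0.08, 95% interval -0.43 to -0.04, edgeR adjusted p = 0.0513). Stn1 passed the test (edgeR adjusted p = 0.00668) when PD100 replicate 2 was left out, and its adjusted p ran from 0.00668 to 0.334 over all alternatives.

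Over the 10 genes, 4 had both PD800 libraries above both PD100 libraries in CPM (Terf2, Acd, Pot1b and Ten1), 4 had both below (Terf2ip, Tinf2, Ctc1 and Stn1) and 2 overlapped (Terf1 and Pot1a). Among all genes tested, 37.4% were higher and 36.3% lower without overlap, so that these counts are close to the background. An exact permutation test of 2 libraries against 2 cannot give a two-sided p below 0.33, and the calls rest on the spread that edgeR estimates over all genes. The summed CPM of the 10 genes was 355 and 365 in PD100 and 364 and 365 in PD800. That of the 7 shelterin genes was 217 and 219 in PD100 and 232 and 231 in PD800, and that of the 3 CST genes 138 and 146 in PD100 and 132 and 134 in PD800.

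**Figure D2:**
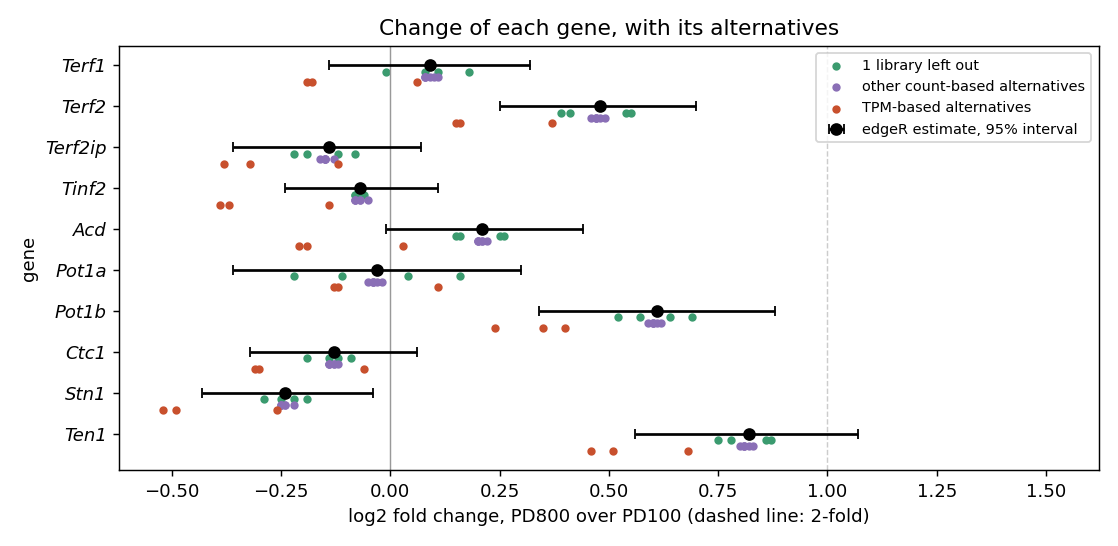
Log2 fold change of each gene, PD800 over PD100, with the edgeR estimate and its 95% interval in black, and below each the estimates with 1 library left out (green), with other count-based settings (purple) and with TPM-based settings (red). The intervals of Terf2, Pot1b and Ten1 start at 0.25, 0.34 and 0.56 and none of these 3 estimates reaches the dashed line at 2-fold, and the red points lie lowest for most genes.

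The 3 rises held in every count-based alternative that kept all 4 libraries, but in none of the tests on TPM. TPM values divide by transcript length and are not corrected for the make-up of the library. On that scale the median of all genes tested shifted by -0.12 at log2(TPM + 1). Among the 7680 genes with a mean of at least 5 TPM the shift was -0.21. With limma on log2(TPM + 1), the log2 fold changes were 0.46 for Ten1, 0.24 for Pot1b and 0.15 for Terf2, with limma adjusted p of 0.116, 0.188 and 0.433. After TMM scaling of the TPM values, an alternative added after the data were seen, they were 0.68, 0.40 and 0.37, with limma adjusted p of 0.0273, 0.0335 and 0.0478. The 3 estimates stayed above 0 in each of these fits, and over all alternatives the adjusted p ran from 1.57e-07 to 0.116 for Ten1, from 0.000139 to 0.191 for Pot1b and from 8.25e-05 to 0.433 for Terf2. On log2(TPM + 1), Terf1 and Acd had negative estimates, -0.18 and -0.19, where the count test gave positive ones.

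Per length the genes spanned a wide range. In PD100 Ctc1 was the highest at 33.3 ± 3.87 TPM (SD, n = 2), followed by Terf1 at 27.6 ± 3.77 TPM, Tinf2 at 21.3 ± 0.354 TPM and Stn1 at 14.9 ± 2.86 TPM, and the replicate ranges of these 4 did not overlap. Acd, Pot1a, Terf2, Ten1 and Terf2ip followed between 10.2 and 5.82 TPM, each overlapping its neighbour in the order. Pot1b was the lowest at 1.55 ± 0.148 TPM. In PD800 the order again ran from Ctc1 at 26.8 ± 0.226 TPM through Terf1 and Tinf2, at 24.1 ± 0.191 and 16.2 ± 0.785 TPM, and ended with Terf2ip at 4.45 ± 0.134 TPM and Pot1b at 2.02 ± 0.262 TPM.

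Ten1 changed its place in that order, from the eighth of 10 in PD100, at 8.82 and 5.94 TPM, to the fourth in PD800, at 10.3 and 10.4 TPM, beside Stn1 at 10.3 and 10.2 TPM. The PD100 replicates of Ten1 were far apart in TPM but not in CPM. Ten1 per Ctc1, both subunits of the same complex, was 0.288 and 0.165 in PD100 and 0.387 and 0.385 in PD800. Terf2 per Terf2ip was 1.53 and 1.44 in PD100 and 2.47 and 1.91 in PD800. Both ratios were higher in the PD800 pair, and as ratios of TPM values within a library they do not depend on its scaling. Stn1 per Ctc1 (0.552 and 0.356 in PD100, 0.386 and 0.376 in PD800) and Terf2 per Terf1 (0.364 and 0.270 in PD100, 0.449 and 0.359 in PD800) overlapped between the groups.

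In TPM, 2 of the 10 genes were higher in both PD800 libraries than in both PD100 libraries (Pot1b and Ten1), 6 were lower (Terf1, Terf2ip, Tinf2, Acd, Ctc1 and Stn1) and 2 overlapped (Terf2 and Pot1a), against 21.3% higher and 49.0% lower over all genes tested. Summed over the 7 shelterin genes, TPM was 85.0 and 84.6 in PD100 and 76.9 and 71.0 in PD800, lower where the summed CPM was higher. For the 3 CST genes the TPM sum was 56.3 and 54.9 in PD100 and 47.2 and 47.5 in PD800, lower as in CPM. The direction for the shelterin sum therefore depends on the scale.

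**Figure D3:**
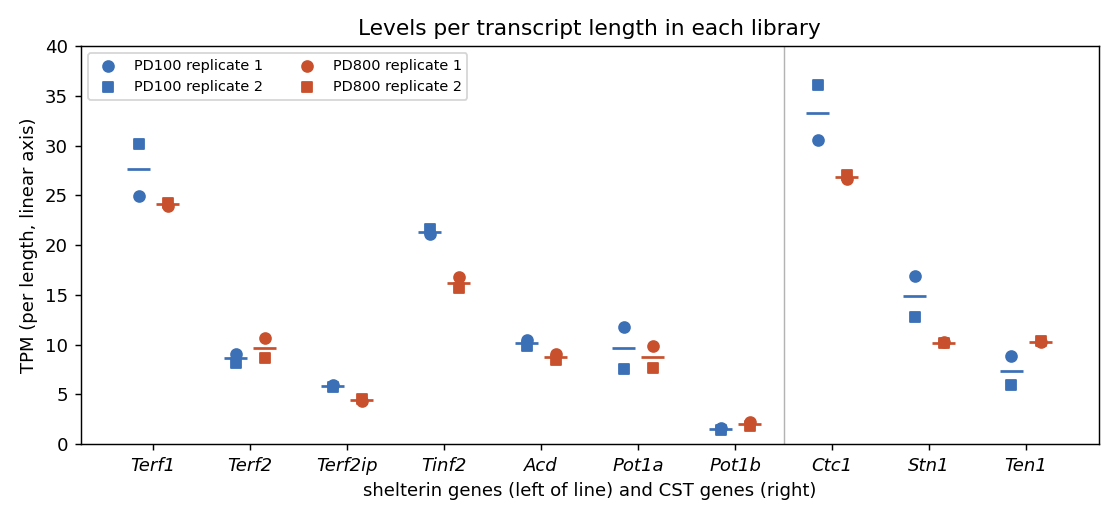
Level of each gene in TPM, which is per transcript length, on a linear axis from 0, with the symbols of the plot in CPM. Ctc1, Terf1 and Tinf2 are the highest in both groups and Pot1b the lowest, and most red points lie below the blue ones except for Terf2, Pot1b and Ten1.

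RSEM also gave each gene a transcript length weighted by abundance, which differs between libraries where the mix of transcripts does. Of the 9 genes with more than 1 annotated transcript, 3 had groups that did not overlap, against 34.6% of all such genes tested. The length for Acd was 1509 and 1565 bases in PD100 and 1666 and 1793 bases in PD800, or 12.5% longer on average, and its TPM was lower in PD800 while its CPM was higher. For Pot1a it was 2406 and 2600 bases in PD100 and 2204 and 2394 bases in PD800, with a gap between the groups of less than the spread within either. The third gene, Terf2ip, differed by 9 bases of 3534. Pot1b has 1 transcript in the table, of 3499 bases, so its values hold no such difference. Without PD100 replicate 1 or PD100 replicate 2, the count of 3 became 9 or 7, and without PD800 replicate 1 it became 5. A lone library overlaps a pair less easily than 2 libraries do. No share of all genes was worked out for it, so the 34.6% is not the background of these counts.

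Some of these genes share exonic bases with a gene on the opposite strand, and the strand setting of the counting is not given in the sources used here. Tinf2 shares 1540 bases with Gmpr2, which fell by 0.69 on the log2 scale (edgeR adjusted p = 0.00848), and Acd shares 1208 with Carmil2 (log2 fold change -0.14, edgeR adjusted p = 0.468). The expected counts of Tinf2, Acd and Stn1 were not whole in any library. Those of Terf1 and Ten1 were whole in 2 of 4 libraries. Stn1 shares 124 bases with Gm19557 and Terf2ip 108 with Gm6793. The counts of Tinf2 and Acd are therefore less certain than those of Terf2, Terf2ip, Pot1a, Pot1b and Ctc1, which were whole in all 4 libraries.

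None of the 10 genes lies next to a chromosome end in the reference. Ten1 is the closest, 5.8 Mb from the last annotated base of chromosome 11, followed by Stn1 at 13.8 Mb on chromosome 19. The 40 tested genes nearest to Ten1, all within 0.48 Mb, had a median log2 fold change of 0.18, and Ten1 was 0.63 above that median. By the test 6 of these 40 were higher and 4 lower, against 13.1% and 15.4% of all genes tested. Within 2.5 Mb of Ten1 the median was 0.24, with 18 of 109 genes higher and 9 lower. The 40 nearest to Pot1b had a median of 0.13 and those nearest to Terf2 of -0.07, so that Pot1b was 0.48 and Terf2 0.55 above their surroundings. The genes around Stn1 had a median of -0.57, with 22 of 40 lower and 1 higher. Those around Tinf2 had a median of -0.39, with 15 of 40 lower and 1 higher. Over all genes tested, 15.4% were lower and 13.1% higher. Stn1 and Tinf2 were thus 0.34 and 0.33 above the median of their own neighbourhoods. Medians of the 40 nearest around the other 5 genes lay between -0.18 (Ctc1) and 0.05 (Pot1a and Terf2ip). Within 2.5 Mb the median around Ctc1 was -0.29, with 32 of 123 genes lower and 4 higher. In the same window it was 0.04 around Pot1b and -0.02 around Terf2.

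**Figure D4:**
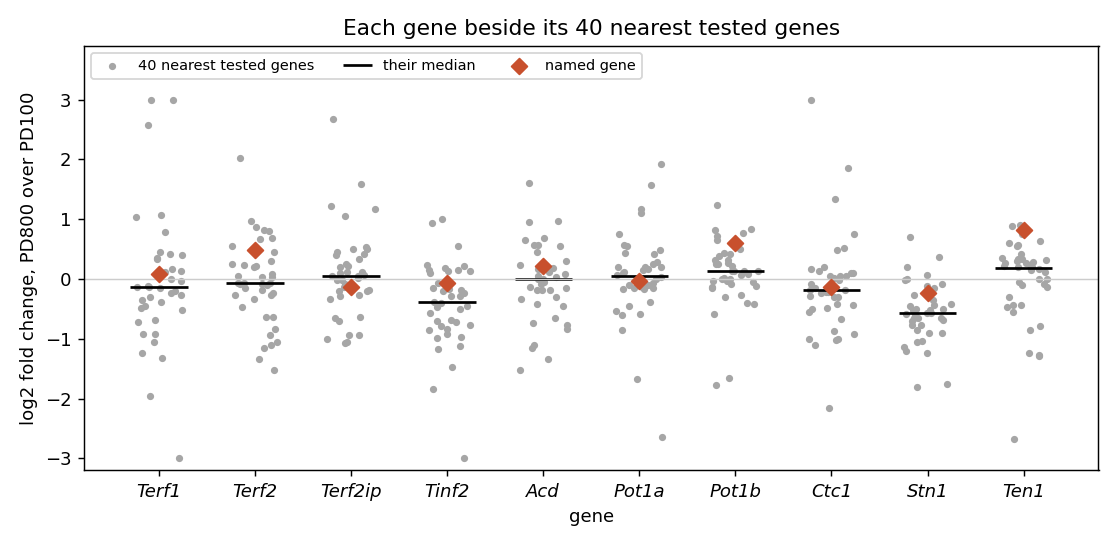
Log2 fold change, PD800 over PD100, of each gene (red diamond) beside its 40 nearest tested genes on the chromosome (grey points, spread sideways at random) and their median (black bar), with 5 points beyond 3 in size drawn at 3 or -3. The diamonds of Ten1, Pot1b and Terf2 stand above their bars by 0.63, 0.48 and 0.55, and the grey points around Stn1 lie mostly below 0.

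Genes whose products work with these complexes were taken in 4 lists. Their counts at an unadjusted p have no background, since no share of all genes was worked out at that cut. Over all genes DESeq2 called 2502 higher and 3036 lower. CST acts through DNA polymerase alpha-primase and shares its binding substrate with the single-strand binding protein RPA. Of the 7 genes for these proteins 1 rose and 0 fell, against 13.1% and 15.4% of all genes tested. Their median log2 fold change was 0.04. At an unadjusted p under 0.05 the counts were 2 and 2, and DESeq2 gave 1 and 0. The gene that rose was Pola1, the catalytic subunit of polymerase alpha, at 97.8 and 107 CPM in PD100 and 142 and 146 CPM in PD800. Both PD800 libraries of Pola1 were above both PD100 libraries, and its log2 fold change was 0.49 (SE 0.08, edgeR adjusted p = 0.00408). Pola1 was not called without PD800 replicate 1 or PD800 replicate 2, and without PD100 replicate 1 the list had 2 genes higher and 2 lower.

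Of 22 factors that shelterin recruits or that act at telomeres, 1 rose and 6 fell, with a median of -0.03. Over all genes tested, 13.1% rose and 15.4% fell by the same rule. At an unadjusted p under 0.05 the counts were 6 higher and 7 lower, and DESeq2 gave 2 and 6. Dclre1b, named here after its value was seen, encodes Apollo, a nuclease that TRF2 brings to telomeres, and it rose by 0.62 (SE 0.11, edgeR adjusted p = 0.00497) from 7.33 and 6.83 CPM to 10.5 and 11.3 CPM. Wrn, a RecQ helicase, fell by 0.76 on the log2 scale (SE 0.08, edgeR adjusted p = 0.000786), from 26.8 and 27.5 CPM to 16.1 and 15.9 CPM. Pinx1, which binds TRF1 and telomerase, fell by 0.73 (SE 0.14, edgeR adjusted p = 0.00675). Xrcc6, the Ku70 subunit of the end-joining machinery, fell by 0.67 (SE 0.09, edgeR adjusted p = 0.00202). The groups of all 4 genes did not overlap in CPM. Without PD800 replicate 1 the list had 0 genes higher and 1 lower, without PD800 replicate 2 it had 0 and 0, and with either PD100 library left out 4 rose.

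Of 18 listed checkpoint and end-processing genes, whose products shelterin holds in check, 15 were found under their symbols and tested. Of these, 0 rose and 1 fell, against 13.1% and 15.4% of all genes tested, with a median of 0.10. At an unadjusted p under 0.05 the counts were 3 higher and 2 lower, and DESeq2 gave 1 and 1. Trp53bp1, whose product 53BP1 promotes end joining at unprotected telomeres, fell by 0.85 on the log2 scale (SE 0.09, edgeR adjusted p = 0.000788), from 120 and 135 CPM to 68.9 and 72.8 CPM. Of the 7 tested telomerase genes 0 rose and 2 fell, beside the same shares of all genes, with a median of 0.21. The counts were 3 and 2 at an unadjusted p under 0.05, and 0 and 2 by DESeq2. Naf1, an assembly factor of RNA-protein particles such as telomerase, and Nhp2, one of their core proteins, fell by 0.96 (SE 0.08, edgeR adjusted p = 0.000362) and 0.55 (SE 0.08, edgeR adjusted p = 0.00279). Tert, the telomerase catalytic subunit, stood at 14.9 and 15.9 CPM in PD100 and 19.6 and 18.4 CPM in PD800, with a log2 fold change of 0.30 (SE 0.09, edgeR adjusted p = 0.0347) that did not pass. The checkpoint list had 3 genes lower without PD100 replicate 2 and 0 without PD800 replicate 1, and the telomerase list had 1 lower without either PD800 library.

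**Figure D5:**
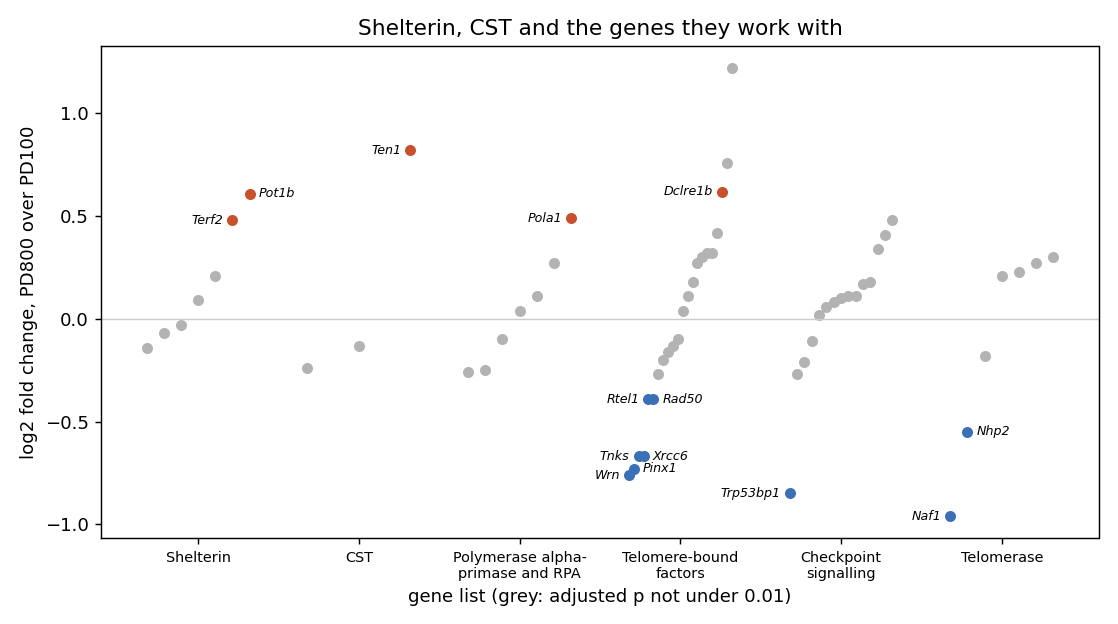
Log2 fold change, PD800 over PD100, of the tested genes of shelterin, CST and 4 lists of genes that work with them, in rising order within each list, with genes that passed an edgeR adjusted p under 0.01 in red (higher) or blue (lower) and named, and the rest in grey. The 3 red points of shelterin and CST are joined by Pola1 and Dclre1b, and 9 genes are blue, none of them in shelterin or CST.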

How the data were processed

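The authors aligned 101 bp paired-end reads to mm10 with STAR 2.5.3a and deposited RSEM 1.3.0 gene tables per library, as the submitters' processing notes and the study's methods say. The deposited expected counts are estimated read numbers that are not scaled for depth, and the deposited TPM values, also made by the authors with RSEM, are scaled for length and to a fixed total. Deposited FPKM values were not used. The annotation release is not given in the sources used here. The results of the paper name mRNA sequencing and its methods bulk RNA sequencing, while the labels give total RNA. The authors used DESeq2 1.18.1.

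Rounded expected counts were tested with edgeR 4.0.16 under R 4.3.3 by the quasi-likelihood test with TMM factors and Benjamini-Hochberg adjustment, after filterByExpr at a minimum count of 10. Each SE is the log2 fold change divided by the square root of the F statistic. The alternatives were DESeq2 1.42.0, other size factors and filters, a replicate block, limma 3.58.1 on log2(TPM + 1) and log2(TPM + 0.1), and each library left out. The script was tested on simulated data. Between replicates counts gave a chi-square of 57.9 per degree of freedom in PD100 and 9.13 in PD800, so that no library repeats another. A floor of 3 counts lay between 0.0743 and 0.0934 CPM and covers counting error only. Positions and overlaps came from GENCODE M21, which holds 19133 of the 19148 tested genes, and similar transcripts from blastn 2.17.0. The 10 genes and all lists were chosen with earlier results of these data known. Named genes were the 10, genes overlapping them (not all of which are reported here), and in each list the 3 largest log2 fold changes past the test. Dclre1b, Tert, Terc, the shieldin genes and the markers of cell types were named outside that rule. No sequence of a protein was used here.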

Additional observations from a re-analysis of the deposited data

How the results depend on the processing

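The count of 3 higher and 0 lower among the 10 genes was the same with DESeq2, upper-quartile normalisation, DESeq2 size factors, a filter of 10 counts in each library or no filter, an adjusted p under 0.05 and the replicate block. The block has no more behind it than a shared number in the labels (correlation of deviations 0.349, 2 pairs). With it the adjusted p was 0.000146 for Ten1 (log2 fold change 0.82), 0.000933 for Pot1b (0.61) and 0.000332 for Terf2 (0.48), 3854 of all genes rose, 4 telomere-bound and 2 checkpoint genes rose, and no member's call changed. On TPM, 0 of the 10 genes rose at a pseudocount of 1, at 0.1 or after TMM scaling. The estimates were 0.46, 0.51 and 0.68 for Ten1, 0.24, 0.35 and 0.40 for Pot1b, and 0.15, 0.16 and 0.37 for Terf2. Those of Terf1 (-0.18 and -0.19) and Acd (-0.19 and -0.21) turned negative at the 2 pseudocounts, and that of Pot1a (0.11) positive after TMM scaling. Why the TPM fits differ was not tested. Genes rising over the whole table numbered 3991 with no filter, and 712, 706 and 1312 on TPM in that order, with 1601 falling after TMM scaling. With 1 library left out, between 1175 and 3994 of all genes rose and between 1478 and 4193 fell. For the 10 genes the counts ran from 0 to 3 higher and from 0 to 1 lower (Stn1, without PD100 replicate 2), and the 0 higher came without PD800 replicate 1 or PD800 replicate 2 and not without either PD100 library. The spread came from the PD100 pair in those 2 fits, and replicate counts differed more in PD100 than in PD800 (chi-square per degree of freedom 57.9 against 9.13), but the part of this was not tested. The estimates ran from 0.75 to 0.87 for Ten1, 0.52 to 0.69 for Pot1b, 0.39 to 0.55 for Terf2, -0.01 to 0.18 for Terf1, -0.22 to 0.16 for Pot1a and -0.29 to -0.19 for Stn1. Of the telomere-bound genes 2 rose with DESeq2, upper-quartile normalisation or 10 counts in every library, 3 with no filter and 0 on each TPM scale, 1 fell on TMM-scaled TPM, and with 1 library left out 0 to 4 rose and 0 to 7 fell. Of the polymerase alpha-primase and RPA genes 0 rose on each TPM scale, 1 fell at log2(TPM + 1), and with 1 library left out 0 to 2 rose and 0 to 2 fell. Of the checkpoint genes 1 rose with DESeq2 and 2 with no filter, 0 fell on TMM-scaled TPM, and with 1 library left out 0 to 2 rose and 0 to 3 fell. Of the telomerase genes 1 fell on TMM-scaled TPM, and with 1 library left out 0 to 1 rose and 1 to 3 fell. The count of genes whose transcript lengths did not overlap, 3, ran from 3 to 9 with 1 library left out. Overlap is less easy there, and no share of all genes was worked out.

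All values come from 2 libraries per group of 1 line. At the lowest count of the 10 genes, 203, counting error is 7.02%, and at the highest, 4131, it is 1.56%.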

Other observations

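The list of checkpoint and end-processing genes held the shieldin genes Shld1, Shld2 and Shld3, which the tables do not give under those symbols. Shieldin acts after 53BP1 to limit trimming of broken DNA ends and to bring CST and polymerase alpha to them. By Ensembl gene identifier, and after the values were seen, Shld1 and Shld2 were found under the older symbols 1110034G24Rik and Fam35a. Fam35a (Shld2) had 29.9 and 32.9 CPM in PD100 and 20.1 and 21.1 CPM in PD800. Its groups did not overlap, and it fell by 0.60 on the log2 scale (SE 0.09, edgeR adjusted p = 0.00272). 1110034G24Rik (Shld1) had 3.77 and 3.69 CPM in PD100 and 7.62 and 7.72 CPM in PD800, a rise of 1.04 on the log2 scale (SE 0.12, edgeR adjusted p = 0.0013). These 2 genes thus moved in opposite directions, each by more than the spread between its replicates.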
